A study of Mus musculus with 24 samples.

Results

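The respiratory chain subunits encoded in the nucleus were followed in RNA sequencing of mouse aorta. They were chosen by name: protein-coding genes with counts whose symbols start with Nduf, Sdha, Sdhb, Sdhc, Sdhd, Uqcr, Cox4i, Cox5, Cox6, Cox7, Cox8 or Atp5. The Ndufaf genes, Sdhaf1 and Sdhaf2, which are assembly factors, and Cox7a1 and Atp5s were left out. This gave 73 of the 22026 protein-coding genes listed: 36 in complex I, 3 in complex II, 7 in complex III, 13 in complex IV and 14 in complex V. A further 9 subunit genes lie on chromosomes 9 and X or near the end of chromosome 8, where the genes have 0 counts in every library, and were not analysed here: Atp5l, Cox4i1, Cox5a, Cox7a2, Cox7b, Ndufa1, Ndufb11, Sdhd and Uqcrc1. The subunits encoded by mitochondrial DNA were not analysed here for the same reason.

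The study asked how the beta catalytic subunit of calcineurin, Ppp3cb, bears on the vascular response to angiotensin II (AngII), a peptide that raises blood pressure. Aortas came from wildtype (WT) mice and from Ppp3cb knockout (KO) mice of the line B6,129S6-Ppp3cbtm1Jmk/J, all 5 months old. Mice were controls or received AngII from osmotic minipumps at 500 ng per kg body weight per min for 4 weeks, and each of the 8 groups by genotype, treatment and sex held 3 libraries, 24 in all. It is not stated if controls were given pumps, if WT mice were littermates, or if each library came from a separate mouse, so p-values measure the spread between these samples.

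The respiratory chain sits in the inner mitochondrial membrane. Complex I and complex II pass electrons from NADH and succinate to ubiquinone, complex III passes them on to cytochrome c, and complex IV passes them to oxygen, while complex V, the ATP synthase, uses the proton gradient built by complexes I, III and IV to make ATP. In the aorta, contractile smooth muscle shares the sample with perivascular fat, part of which is brown fat in rodents, a tissue rich in mitochondria. Subunit genes are known targets of the transcription factors NRF1, GABP (an ETS factor), YY1 and the estrogen-related receptors (ERR), with Ppargc1a as their coactivator.

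The promoters of the subunits are described before the values. The 250 bases before the transcription start were read from RefSeq's table (GRCm38.p6), which matched 58 of the 73 genes with 63 promoters. Both strands were searched for 4 letter patterns: the NRF1 consensus (10 letters, any base at the sixth, as the capitals in Cox6a1 show), CCGGAAG for ETS factors, AANATGGC for YY1 and TCAAGGTCA for ERR. The NRF1 pattern was found in 13 of the 63 promoters (20.6%), against 3.74% of all 32851 promoters in the table. For the ETS pattern the shares were 15.9% and 6.91%, for YY1 7.94% and 3.91%, and for ERR 1.59% and 0.387%. At least 1 of the 4 patterns was present in 41.3% of the subunit promoters and in 13.8% of all promoters. Such a match is a description of letters and not a binding site. The 32851 promoters were not limited to genes with counts in aorta. Whether the patterns bear on the levels was not tested. Promoters are printed for the complex IV genes Cox6a1, Cox8b and Cox8a, which had the highest levels per length of all subunits, and for Atp5g3 of complex V, the only subunit with the ERR pattern. They run 5′ to 3′ on the gene's strand, with the matches in capitals, on either strand. Cox6a1 lies at chr5:115348959-115349208 on the minus strand, Cox8b at chr7:140900447-140900696 (minus), Cox8a at chr19:7217617-7217866 (minus) and Atp5g3 at chr2:73911327-73911576 (minus).
Cox6a1: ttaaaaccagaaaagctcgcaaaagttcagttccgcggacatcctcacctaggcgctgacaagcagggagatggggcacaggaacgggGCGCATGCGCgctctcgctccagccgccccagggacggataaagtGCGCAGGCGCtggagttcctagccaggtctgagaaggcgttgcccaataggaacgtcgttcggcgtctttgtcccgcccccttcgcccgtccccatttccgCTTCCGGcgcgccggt
Cox8b: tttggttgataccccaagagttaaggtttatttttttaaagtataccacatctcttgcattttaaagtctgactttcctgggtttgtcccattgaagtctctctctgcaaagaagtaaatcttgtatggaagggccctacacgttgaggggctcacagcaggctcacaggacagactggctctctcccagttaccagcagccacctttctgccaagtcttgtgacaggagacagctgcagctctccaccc
Cox8a: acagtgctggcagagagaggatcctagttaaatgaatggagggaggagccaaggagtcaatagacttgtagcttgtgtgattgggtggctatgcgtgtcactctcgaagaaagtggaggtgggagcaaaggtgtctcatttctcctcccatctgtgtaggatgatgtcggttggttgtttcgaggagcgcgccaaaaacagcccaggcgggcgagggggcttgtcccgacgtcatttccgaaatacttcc
Atp5g3: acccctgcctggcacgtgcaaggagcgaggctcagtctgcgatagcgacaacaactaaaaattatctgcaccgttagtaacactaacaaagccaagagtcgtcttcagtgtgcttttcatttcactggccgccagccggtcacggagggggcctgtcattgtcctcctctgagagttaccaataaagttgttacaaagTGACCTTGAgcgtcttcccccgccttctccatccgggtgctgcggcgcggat
In Cox6a1 the capitals mark 2 NRF1 matches, from 162 to 153 and from 117 to 108 bases before the start, and an ETS match from 16 to 10 bases before it. In Atp5g3 they mark the ERR match, from 52 to 44 bases before the start. None of these matches overlaps another. Neither Cox8 promoter held any of the 4 patterns in this window.

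Libraries held 1523328 to 6352365 counts (median 3835993), of which 2709 to 15719 fell on the subunits, or 0.239% to 0.712% of protein-coding counts. The lowest of these was KO control female 1. The 3 KO control female libraries were high in olfactory and vomeronasal receptor genes, which are mostly silent outside sensory tissue. They carried 1002 to 1992 CPM on these genes, against 111 to 1073 in the other 21. CPM are counts scaled to a fixed library size, here to protein-coding counts. KO control females 1 and 3 (1992 and 1893) lay above every other library, but KO control female 2 (1002) lay below KO AngII female 1 (1073). Ppp3cb itself had 28.1 to 69.4 CPM (median 39.5) in the 12 WT libraries and 11.2 to 30.3 (median 20.2) in the 12 KO libraries, so the ranges met with the sexes pooled. Within each sex they did not meet. Females had 36.4 to 69.4 CPM in WT and 15.1 to 30.3 in KO. Males had 28.1 to 48.8 CPM in WT and 11.2 to 20.9 in KO. The table counts the whole gene and does not separate the deleted part. The tissue label was matched by the smooth muscle markers, whose summed level was 7169 to 22000 CPM. Of the 10, 2 were at 0, Tagln and Cnn1, which lie on chromosome 9.

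Among subunits, levels per length were highest for the complex IV genes Cox6a1, Cox8b and Cox8a, followed by Atp5a1 of complex V. Level here is the mean over 24 libraries in CPM, scaled by TMM (trimmed mean of M values) factors, per kilobase of exon. Cox6a1, a small subunit that stabilizes complex IV, had 143 CPM per kb. Cox8b and Cox8a, isoforms of another small complex IV subunit, had 131 and 93.7. In complex V, Atp5a1 and Atp5b, the alpha and catalytic beta chains of the F1 head, had 77.6 and 63.6. Both complexes also held genes at low levels per length, such as Cox6a2 (0.177) and Atp5g1 (1.23). Uqcrb was the highest in complex III (68.2), Ndufb9 in complex I (50.9) and Sdha, the flavoprotein that oxidizes succinate, in complex II (38.5). In CPM not corrected for length, mean levels of the 69 subunits that passed the low-count filter ran from 1.99 for Cox6b2 to 269 for Atp5b, with a median of 19.5. A count was seen in every library for 53 of the 73, and 16 of the 69 tested had 0 counts in at least 1 library.

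Tissue isoforms of complex IV differed in level. Cox8b is known from heart, skeletal muscle and brown fat, and Cox8a from most tissues. Cox8b had 10.8, 58.7 and 117 CPM (lowest, median, highest) in the 6 WT control libraries, 17.8, 52.6 and 85.8 in WT AngII, 19.1, 28.5 and 68.7 in KO control and 30.6, 43.0 and 49.8 in KO AngII. Cox8a had 22.9, 63.9 and 120 CPM in WT control, 31.0, 47.1 and 107 in WT AngII, 13.4 to 63.4 in KO control and 37.3, 57.2 and 79.9 in KO AngII. All 4 groups overlapped for both genes, and the lowest and highest values of Cox8b both came from WT control males. The ratio of Cox8b to Cox8a per kilobase was 0.602 to 3.41 over the 24 libraries, with a median of 1.28.

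Cox6a2, Cox7b2, Cox8c and Cox4i2, isoforms of striated muscle, testis or lung, were near the detection limit. Cox6a2, the heart and skeletal muscle form of Cox6a1, had 11 counts in all and 0 in 20 libraries. Cox7b2 had 12 counts in all, with 0 in 21 libraries, and Cox8c also had 12, with 0 in 22. Both are known from testis. Cox4i2, the lung form of Cox4i1, had 97 counts and 0 in 7 libraries. These 4 did not pass the filter and were not tested. Cox7a1, the heart and muscle form that the choice of genes left out, had 1.65 to 53.5 CPM (mean 18.7), and its differences were −0.75 to 0.07 on the log2 scale, with none called.

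**Figure D1:**
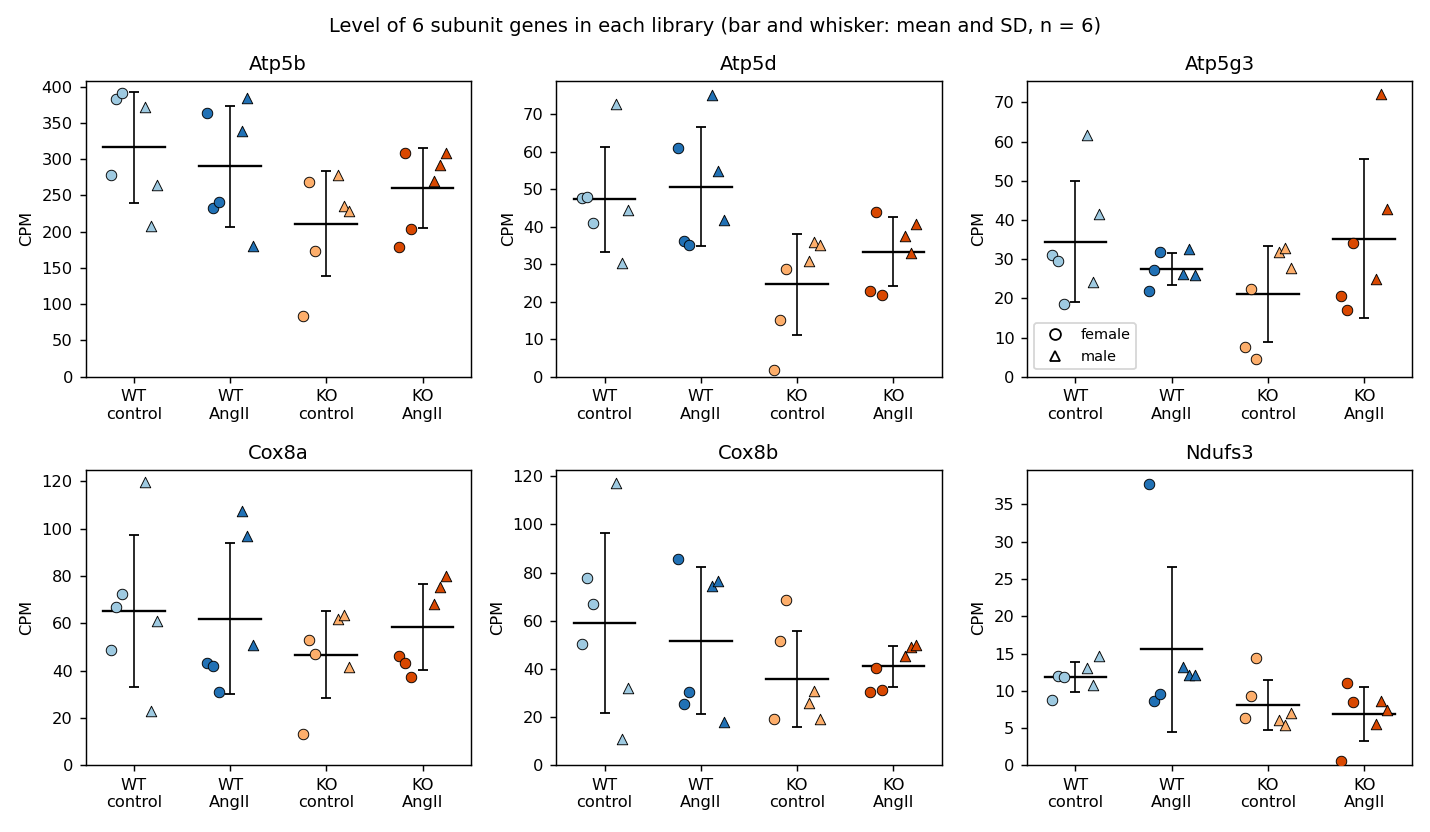
Level in CPM (y axis, from 0) of Atp5b, Atp5d, Atp5g3, Cox8a, Cox8b and Ndufs3 in each library, by genotype and treatment (x axis). Circles are females and triangles males; the bar and whisker are the mean and SD of 6 libraries. Atp5d in KO control runs from 1.91 to 35.8 CPM and overlaps WT control (30.4 to 72.8), and Ndufs3 has 1 high library in WT AngII (37.8) and 1 low library in KO AngII (0.528).

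No subunit passed the test in any of the 5 comparisons. The test was edgeR's quasi-likelihood F-test on counts, averaged over the sexes, with Benjamini-Hochberg adjustment over 16316 genes and a call at an adjusted p under 0.05. Of 69 subunits tested, 0 were called for AngII against control in WT, where 0.208% of all genes were called, and 0 for AngII against control in KO, where the background was 0%. For KO against WT, 0 were called in controls (background 0.221%) and 0 under AngII (background 0.355%). For the difference between the KO and the WT response, 0 were called (background 0%). At an unadjusted p under 0.05 the counts were 0, 3, 7, 1 and 1 of 69, in that order, against 6.71%, 7.71%, 9.73%, 7.75% and 4.03% of all genes. DESeq2 and limma-voom, run as alternatives, also called 0 subunits in each. In no comparison of 2 groups of 6 did any subunit separate the groups without overlap, where the background, higher and lower, was 0.386% and 0.264% of genes for AngII in WT, 0.116% and 0.11% for AngII in KO, 0.227% and 0.11% for KO against WT in controls, and 0.539% and 0.276% under AngII. In simulated data with these depths, the test for AngII in WT called 17 of 100 genes changed 2-fold and 63 of 100 changed 4-fold.

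For KO against WT in controls, 54 of the 69 subunits had a negative log2 difference and 15 a positive one, with a median of −0.33. The median of all 16316 genes was −0.0057. The subunits with a mean of at least 20 CPM, 33 in number, had a median of −0.31 with 28 negative, and the 5171 genes at that level had a median of −0.11 with 3535 negative. Averaged over the sexes, the 5 complexes had like medians: −0.35 for complex I, −0.31 for II, −0.29 for III, −0.31 for IV and −0.35 for V. Within each sex they were less alike. The female medians were −0.43, −0.43, −0.53, −0.32 and −0.68 for complexes I to V, in that order. The male medians were −0.14, −0.17, 0.15, −0.38 and −0.18. Of the 14 core subunits that carry the redox centres or the catalytic chains, all 14 were negative, with a median of −0.41, but none was called.

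The complex V genes held the smallest p-values in that comparison. Atp5d, the delta chain of the central stalk (chr10:80138632-80145818, mm10), had 30.4, 46.1 and 72.8 CPM in WT control (lowest, median, highest), 35.2, 48.3 and 75.2 in WT AngII, 1.91, 29.8 and 35.8 in KO control and 21.9, 35.2 and 43.9 in KO AngII. KO control overlapped WT control, and its lowest value was KO control female 1, with 3 counts. The log2 difference of Atp5d between KO and WT controls was −1.04 ± 0.31 (SE), with an adjusted p of 0.179 by edgeR. Atp5d was called in 2 of the alternatives: without KO control female replicate 3, at −1.47 with an adjusted p of 0.0389, where 0.153% of all genes were called, and with no count filter, at −1.09 with an adjusted p of 0.00715, where 0.818% were called.

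Atp5b, the catalytic beta chain (chr10:128083273-128090391), had 208, 325 and 391 CPM in WT control, 180, 290 and 385 in WT AngII, 84.1, 232 and 278 in KO control and 179, 280 and 309 in KO AngII. All 4 groups overlapped. Its difference between KO and WT controls was −0.59 ± 0.23, with an adjusted p of 0.359 by edgeR, and −0.87 with an adjusted p of 0.0398 without KO control female replicate 2, where 2.22% of all genes were called. Atp5g3, which encodes the c subunit of the rotor ring (chr2:73908447-73911326), had 18.5, 30.4 and 61.8 CPM in WT control, 21.8, 26.6 and 32.6 in WT AngII, 4.43, 25.0 and 32.9 in KO control and 17.0, 29.5 and 72.1 in KO AngII. The low KO control values were females 1 and 3, with 7.64 and 4.43 CPM, and the high KO AngII value was male 2. Its differences were −0.80 ± 0.30 for KO against WT in controls (adjusted p = 0.348 by edgeR) and 0.80 ± 0.30 for AngII in KO (adjusted p = 0.512). Without KO control female replicate 2 they were −1.36 (adjusted p = 0.02) and 1.33 (adjusted p = 0.0391). The other genes for the same c subunit, Atp5g1 and Atp5g2, had differences of 0.22 ± 0.47 and 0.12 ± 0.54 between KO and WT controls.

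In complex I, 30 of 36 subunits had negative differences between KO and WT controls, among them those that carry iron-sulfur clusters or bind NADH. Ndufs8, which carries clusters on the path to ubiquinone, was at −0.68 ± 0.31, Ndufs1 of the NADH-oxidizing arm at −0.37 ± 0.23 and the flavoprotein Ndufv1 at −0.25 ± 0.32. The accessory subunits Ndufa10 and Ndufa6 were at −0.51 ± 0.23 and −0.49 ± 0.23. The largest positive difference was 0.61 ± 0.73 for Ndufa4l2, a low-level gene known to be induced by hypoxia, with 0 counts in 2 libraries. Ndufa4, counted by its symbol with complex I although the protein is known as part of complex IV, was at −0.60 ± 0.39.

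In complexes II, III and IV the same comparison gave values of like size. Sdha had 121, 184 and 254 CPM in WT control, 96.0, 158 and 272 in WT AngII, 91.1, 136 and 193 in KO control and 110, 151 and 175 in KO AngII. These ranges overlapped, and its difference between KO and WT controls was −0.39 ± 0.22. The iron-sulfur subunit Sdhb was at −0.31 ± 0.33 and the membrane anchor Sdhc at −0.22 ± 0.22. In complex III, the Rieske protein Uqcrfs1 was at −0.44 ± 0.46, Uqcrh, the hinge protein that helps cytochrome c dock, at −0.42 ± 0.27 and Uqcrb at 0.07 ± 0.21. In complex IV, Cox8b was at −0.77 ± 0.39, Cox5b at −0.68 ± 0.44, Cox6a1 at −0.64 ± 0.31 and Cox8a at −0.50 ± 0.29, while Cox7a2l, which joins complexes III and IV into supercomplexes, was at 0.14 ± 0.22.

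**Figure D2:**
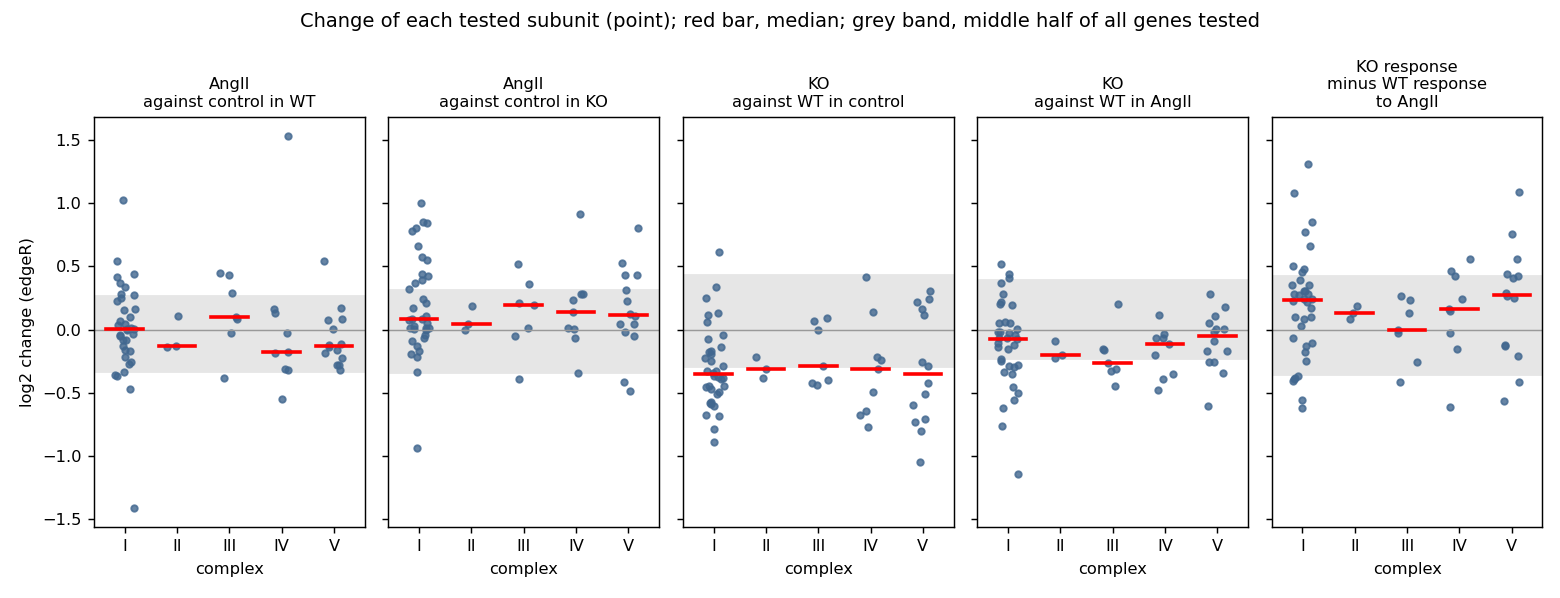
Log2 difference (y axis) of each of the 69 tested subunits by complex (x axis) in the 5 comparisons (panels). Points are genes, red bars are medians of a complex and the grey band spans the 25th to 75th percentile of all genes tested. In KO against WT controls all 5 red bars lie between −0.29 and −0.35, and no point was called.

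For KO against WT with AngII, 49 of 69 subunits were negative and 20 positive, with a median of −0.11, against 0.0079 for all genes. At a mean of 20 CPM or more the median was −0.07 for subunits and −0.08 for all 5171 genes, of which 3360 were negative, so the subunits were no lower than genes of like level. Complex III had a median of −0.26, complex II −0.20, complex IV −0.11, complex I −0.07 and complex V −0.05. The smallest p-value belonged to Ndufs3, a core subunit of the arm that hands electrons to ubiquinone (chr2:90894634-90904827). Ndufs3 had 8.79, 11.9 and 14.7 CPM in WT control, 8.64, 12.1 and 37.8 in WT AngII, 5.48, 6.71 and 14.4 in KO control and 0.528, 7.94 and 11.1 in KO AngII. The groups overlapped, with WT AngII female 1 far above and KO AngII female 1, with 2 counts, far under the rest. Its difference under AngII was −1.14 ± 0.43 (adjusted p = 0.441 by edgeR), and −0.64 without WT AngII female replicate 1. Ndufc1 (−0.76 ± 0.53), Ndufa12 (−0.62 ± 0.44) and Atp5d (−0.60 ± 0.30) had the next lowest values.

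For AngII against control in WT, 33 of 69 subunits were positive and 36 negative, with a median of −0.02. This averages females, with 49 of 69 negative and a median of −0.13, and males, with 41 positive and a median of 0.10. At a mean of 20 CPM or more, 22 of 33 subunits were negative with a median of −0.13, against 0.05 for all 5171 genes, and 11 of the 14 core subunits were negative. The complex medians ran from −0.18 in complex IV to 0.10 in complex III. The extremes were low-level genes with wide errors: Cox6b2, known from testis, at 1.53 ± 1.03 and the accessory subunit Ndufs5 at −1.41 ± 0.85. Ndufa4l2 was at 1.02 ± 0.70 and Cox5b at −0.55 ± 0.43.

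For AngII against control in KO, 51 subunits were positive and 18 negative, with a median of 0.11, against 0.01 for all genes. At a mean of 20 CPM or more the median was 0.11 for subunits and 0.09 for all 5171 genes, of which 3344 were positive, so the subunits lay close to genes of like level. Complex medians were 0.19 in III, 0.14 in IV, 0.12 in V, 0.09 in I and 0.05 in II. The largest values were 1.00 ± 0.42 for Ndufa3, an accessory subunit of complex I (adjusted p = 0.585 by edgeR), and 0.92 ± 1.03 for Cox6b2. Ndufs8 was at 0.66 ± 0.31. This comparison and that of KO against WT in controls share the 6 KO control libraries.

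The difference between the KO and the WT response to AngII had a median of 0.22 over the subunits, with 46 positive and 23 negative, against 0.04 for all genes. At a mean of 20 CPM or more it was 0.24, against 0.04 for all genes. The KO control libraries enter this difference too. In a fit lacking KO control females 1 and 3, its median was 0.08 over the subunits, against 0.10 for all genes. With all 24 libraries, complex V had a median of 0.28, complex I 0.23, complex IV 0.16, complex II 0.13 and complex III 0.00. The largest values were 1.31 ± 0.81 for Ndufa7, 1.08 ± 0.42 for Atp5g3 and 1.08 ± 0.58 for Ndufa3, each with an adjusted p of 1 by edgeR.

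No subunit was called within either sex. In females, 57 of 69 subunits were negative for KO against WT in controls, with a median of −0.44, and 0 were called (background 0.815%). In males 44 were negative, with a median of −0.15, and 0 were called (background 0%). Under AngII, KO against WT also gave 0 called subunits in males (background 0.0245%). For KO against WT in controls, the female minus male difference had a median of −0.38 over the subunits, with 0 called (background 0.0552%). It was −0.74 without WT control male replicate 1, −0.18 without WT control male replicate 2, −0.21 without KO control female replicate 1, −0.19 with RLE scaling, 0.04 with brown adipocyte markers as a covariate and 0.22 with the receptor share as a covariate. By complex, the medians of this difference with all 24 libraries were −0.18, −0.38, −0.58, 0.58 and −0.62 for complexes I to V. Complex IV thus went the other way, with 3 of 9 negative. The smallest p belonged to Uqcrh, at −1.58 ± 0.55 (adjusted p = 0.275 by edgeR). For AngII in WT, complex III had a median of −0.28 in females and 0.48 in males, and all 7 of its genes were lower in the female minus male difference, with none called. No subunit was called for a difference between the sexes in any of the 5 comparisons.

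The subunits varied together from library to library. An index was taken as the mean of log2 CPM (prior count 2) over the 69 subunits, each centred on its mean over 24 libraries. It ran from −1.21 in KO control female 1 to 0.56 in WT control male 1. Its mean was 0.11 ± 0.39 in WT control, 0.14 ± 0.34 in WT AngII, −0.26 ± 0.49 in KO control and 0.01 ± 0.14 in KO AngII (SD, n = 6), so the groups overlapped. WT control males alone spanned −0.55 to 0.56, the whole range of the libraries other than KO control female 1. In KO control female 1 the index was −1.47 for complex I, −1.45 for complex V and −1.03 for complex III, but −0.24 for both complex II and complex IV. This library had 0 counts for Ndufa2, Ndufa4, Ndufa4l2, Ndufa5, Ndufa7, Ndufa8, Ndufa11, Ndufb6, Ndufb8, Ndufc2, Uqcr11, Atp5f1 and Atp5o. For those genes the log2 CPM there is set by the prior count. No tested subunit of complexes II and IV was at 0 in it, so the complexes are not compared on like counts. The lowest complex IV value, −0.81, was in KO control male 3. Without KO control female replicate 1, the median difference between KO and WT controls was −0.25.

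**Figure D3:**
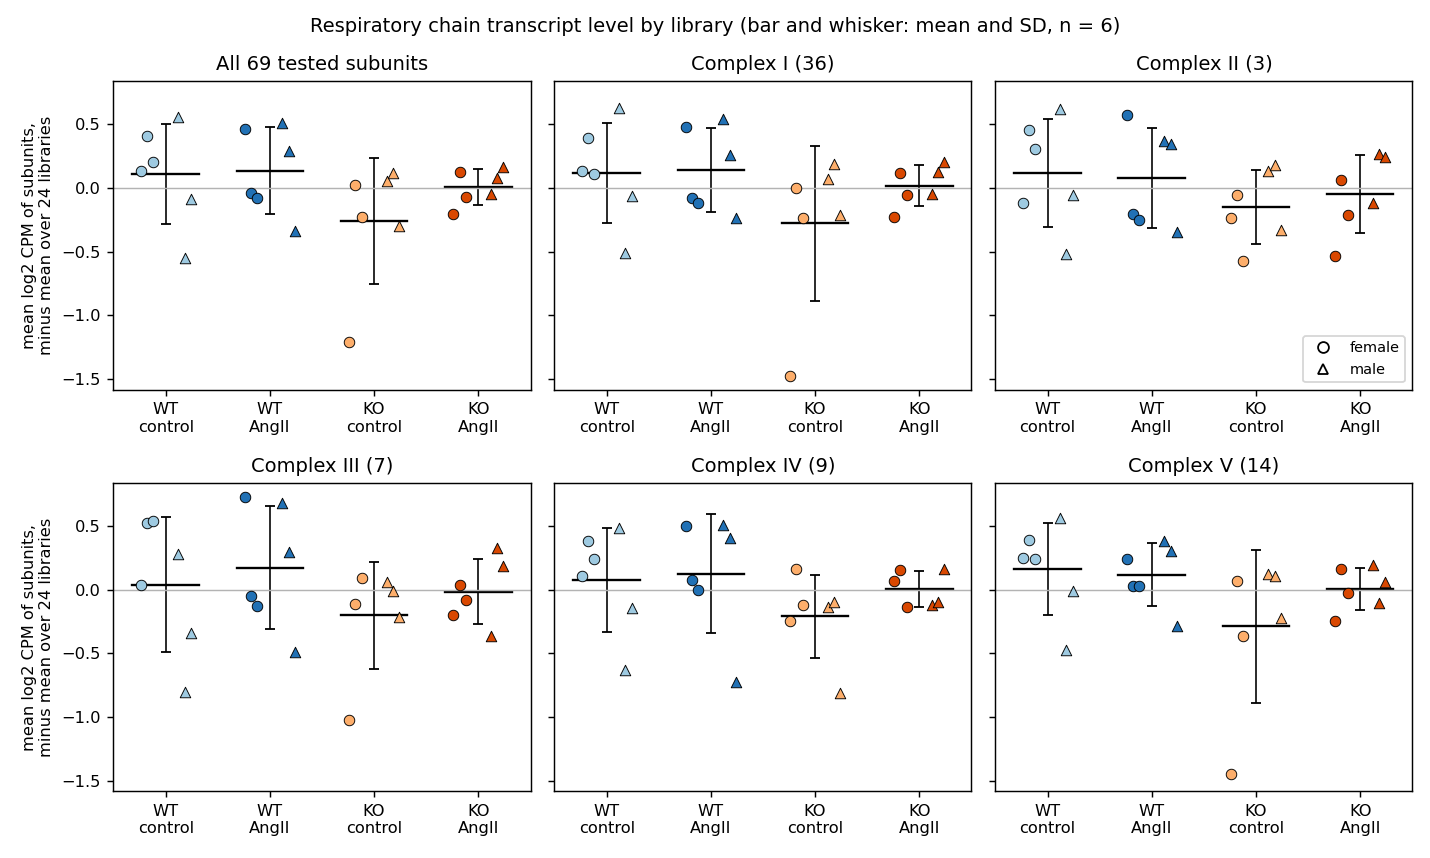
Mean centred log2 CPM of the tested subunits (y axis) in each library by genotype and treatment (x axis), for all 69 subunits and for each complex (panels). Circles are females and triangles males; the bar and whisker are the mean and SD of 6 libraries. The groups overlap in every panel, and KO control female 1 lies lowest in the panels for all subunits, complex I, complex III and complex V.

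Over the 24 libraries, the correlation of a subunit's log2 CPM with the mean of the other subunits had a median of 0.59, and it was above 0.5 for 39 of 69. These libraries share depth and scaling, so this is a description. Atp5b (0.92), Atp5a1 (0.90) and Ndufv1 (0.85) had the highest values, and Cox7a2l had the lowest, at −0.59. By complex the medians were 0.65 in III, 0.59 in I, 0.59 in II, 0.48 in V and 0.33 in IV. Among 5734 other genes whose mean level was 4 log2 CPM or more, the 5 most like the index were Eno1 (Pearson's r 0.94), Cs (0.93), Ogdh (0.91), Crat (0.91) and Aldoa (0.90). Cs and Ogdh are enzymes of the citric acid cycle, Crat transfers acetyl groups to carnitine, and Eno1 and Aldoa act in glycolysis. Eno1 has a near-identical copy, Eno1b, so its counts are uncertain.

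Brown adipocyte markers moved with the subunits. The summed level of Ucp1, Cidea, Elovl3, Dio2, Otop1, Ppara, Lhx8 and Ebf2 was 95.2 to 474 CPM, with none of the 8 at 0 in all libraries. It was 95.2, 344 and 474 CPM in WT control (lowest, median, highest), 120, 287 and 429 in WT AngII, 114, 176 and 267 in KO control and 143, 213 and 279 in KO AngII. The WT groups reached higher than the KO groups, and all 4 overlapped. Of its 7 tested genes, 7 had negative differences for KO against WT both in controls (median −0.76) and under AngII (median −0.60), with 0 called. Lhx8, which did not pass the filter, went the other way, with means of 0.32 CPM in WT control and 2.75 in KO control. It had 0.38 CPM in WT AngII and 0.66 in KO AngII, and 0 counts in 10 libraries. Ucp1, the uncoupling protein of brown fat, was at −0.996 ± 0.494 in controls. Within the 8 groups of 3, the library with the highest marker sum had the highest subunit index in 8 and the lowest had the lowest in 7. For the 12 general adipocyte markers these counts were 6 and 5, for smooth muscle markers 2 and 4, for cardiac muscle markers 2 and 2, for skeletal muscle markers 2 and 2 and for macrophage markers 5 and 4. General adipocyte markers summed to 773 to 2813 CPM, cardiac muscle markers to 153 to 295, skeletal muscle markers to 6.90 to 76.4 and macrophage markers to 90.3 to 591. Other cell type markers also moved with the KO control females. Smooth muscle markers summed to 7169 to 11230 CPM there, against 15350 to 16570 in WT control females, and general adipocyte markers to 773 to 1645, against 1541 to 2081. Skeletal muscle markers summed to 32.7 to 76.4 CPM, against 13.04 to 22.49. For KO against WT in controls over both sexes, 8 of 8 tested smooth muscle markers were negative (median −0.31), 11 of 12 general adipocyte markers were negative (median −0.47), 5 of 6 skeletal muscle markers were positive (median 0.75), 6 of 8 cardiac muscle markers were positive (median 0.93) and 10 of 10 macrophage markers were positive (median 1.38), with 0 called. In bulk tissue, fewer cells of a type and less RNA per cell cannot be told apart.

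With the brown adipocyte marker level as a covariate, the median difference of the subunits between KO and WT controls was 0.06, with 41 positive and 28 negative, in place of −0.33. The median was then 0.06 for KO against WT under AngII in place of −0.11, 0.09 for AngII in WT in place of −0.02, 0.02 for AngII in KO in place of 0.11, and 0.03 for the difference of responses in place of 0.22. With the receptor share as a covariate the median was −0.07 for KO against WT in controls, 0.25 under AngII, −0.26 for AngII in WT, −0.03 for AngII in KO and 0.30 for the difference of responses. With skeletal and cardiac muscle markers as a covariate the median for KO against WT in controls was −0.27. These covariates are levels in the same libraries. Whether any cell type or library quality had a part in the differences was not tested.

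**Figure D4:**
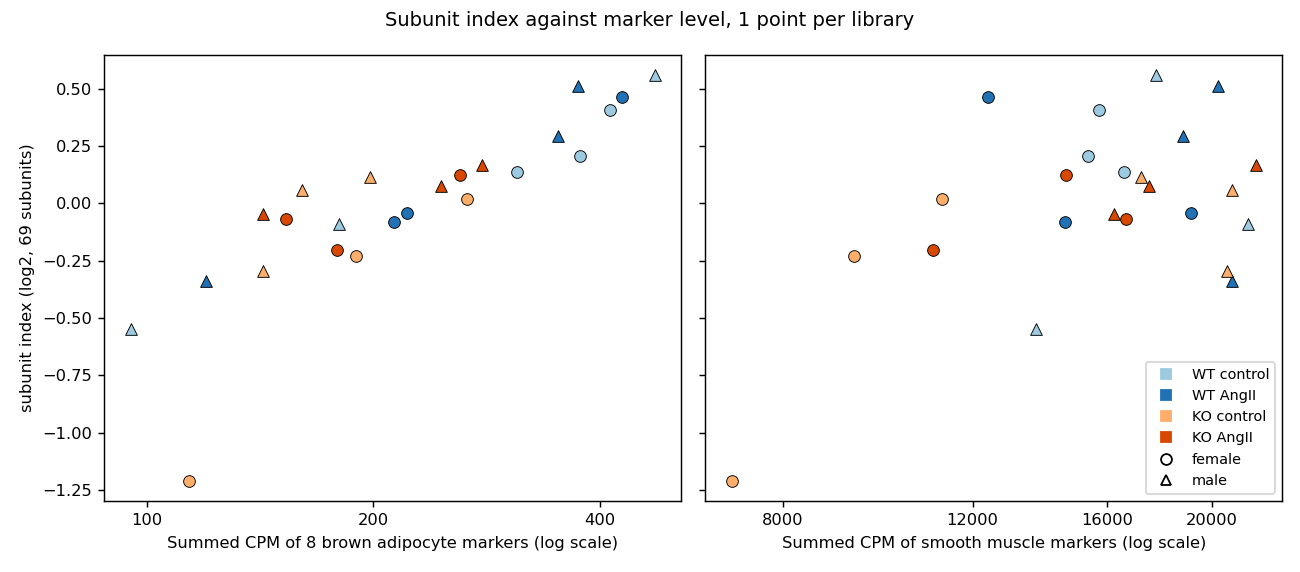
Subunit index (y axis, log2) against the summed CPM of brown adipocyte markers (left) and of smooth muscle markers (right), both x axes on a log scale, with 1 point per library; colour gives genotype and treatment, shape the sex. On the left, the libraries from 95.2 to 474 CPM run from low to high index, with KO control female 1 (114 CPM, index −1.21) under the others; on the right this library is the lowest on both axes.

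**Figure D5:**
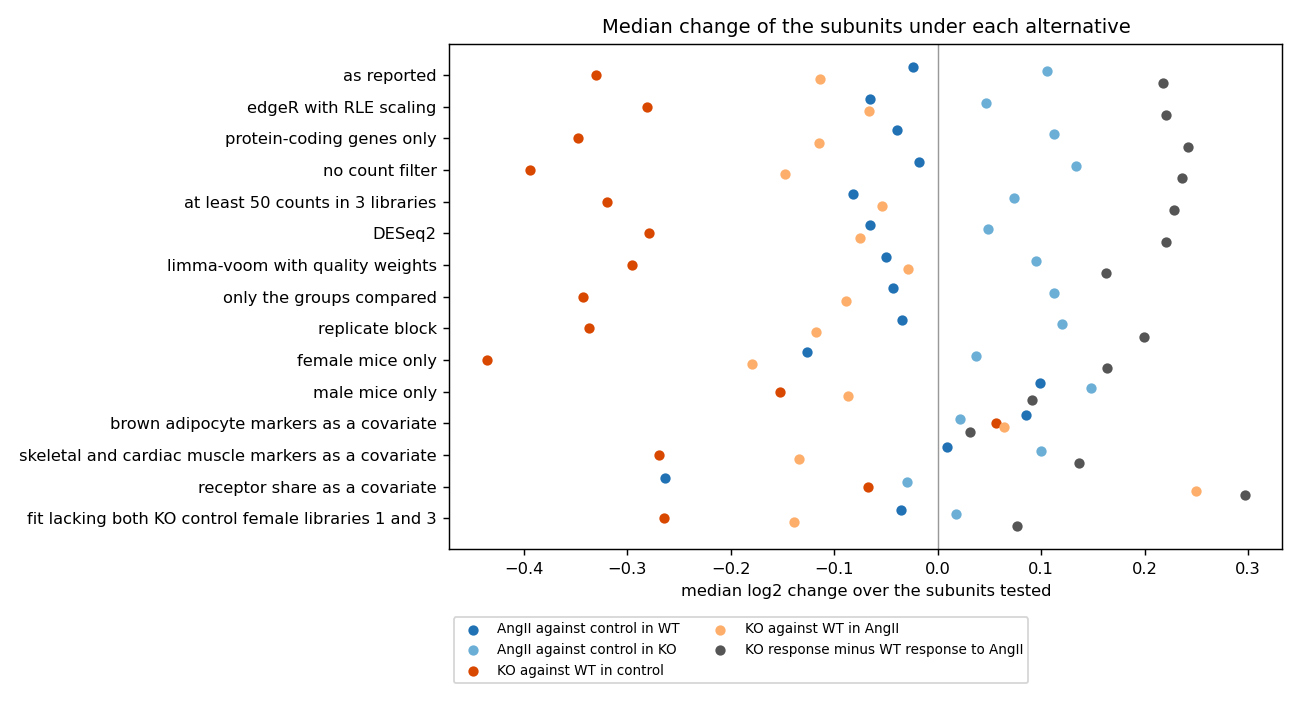
Median log2 difference over the tested subunits (x axis) in the 5 comparisons (colours) as reported and under each alternative (y axis). KO against WT in controls is negative under every alternative shown except with brown adipocyte markers as a covariate, where it is 0.06.

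Genes that act with the respiratory chain were counted by lists in the same fit, and none of their members was called in any of the 5 comparisons. Of 12 tested citric acid cycle genes, 12 were negative for KO against WT in controls, with a median of −0.42. Fh1, fumarase, was at −0.75 ± 0.25 (adjusted p = 0.241 by edgeR) and Ogdh at −0.68 ± 0.22 (adjusted p = 0.237). Of 32 assembly factors, which build the complexes, 17 were negative and 15 positive, with a median of −0.06. Lyrm7, which inserts the Rieske protein into complex III, had a mean of 3.28 ± 1.91 CPM in WT control and 1.31 ± 1.85 in KO control (SD, n = 6), with 0 counts in 5 of 24 libraries, and it was not called (adjusted p = 0.364 by edgeR). Of 12 electron carriers and exchangers, 9 were negative, with a median of −0.24, and Cycs, cytochrome c, was at −0.79 ± 0.32. Of 7 mitochondrial antioxidant genes, 5 were negative, with a median of −0.19.

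Among 14 tested regulators of mitochondrial biogenesis, 11 were negative for KO against WT in controls and 12 under AngII. Ppargc1a, the coactivator that drives this programme, had a mean of 30.7 ± 19.6 CPM in WT control, 15.1 ± 4.75 in WT AngII, 18.8 ± 9.94 in KO control and 7.63 ± 2.83 in KO AngII (SD, n = 6). Its log2 difference was −0.95 ± 0.33 for AngII in WT (adjusted p = 0.435 by edgeR), −1.25 ± 0.35 for AngII in KO (adjusted p = 0.297) and −1.04 ± 0.34 for KO against WT under AngII (adjusted p = 0.295). Esrra, which encodes an estrogen-related receptor, was at −1.34 ± 0.54 for KO against WT in controls and 1.25 ± 0.54 for AngII in KO. Nrf1 was between −0.29 and 0.13 in the 4 comparisons of 2 groups.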

How the data were processed

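Per the labels' protocols, TRIzol-isolated total RNA had genomic DNA digested and ribosomal RNA removed, and was then fragmented for Illumina libraries. The authors deposited raw whole-number counts per gene without normalization. The submitters' processing notes name featureCounts 1.4.6, the aligners TopHat2 2.0.14 and Bowtie2 2.2.5, the trimmer cutadapt 1.8.1 and the build mm10; strandedness and the handling of reads that match several genes are not given in the sources used here, so subunits with processed pseudogenes or overlapping genes are uncertain. Coordinates and exon lengths came from GENCODE M21, which matched 73 of 73 subunits by identifier.

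Low counts were filtered with filterByExpr (at least 10, and 15 in total), leaving 16316 genes. Counts were scaled by TMM and tested two-sided with edgeR 4.0.16 (R 4.3.3, limma 3.58.1) in 1 quasi-likelihood fit of 8 group coefficients over 24 libraries. Comparisons average the female and the male contrast. Errors of log2 differences are SE, from the F statistic. The fit was tested on simulated data. Levels are CPM, and log2 CPM used a prior count of 2. Alternatives were other scalings, filters, tools (DESeq2 1.42.0, limma-voom), covariates, sexes apart, a replicate block and each library left out.

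The subunits and lists were chosen with earlier results of these data known. Named subunits are the 4 largest differences each way in each comparison, called genes, isoforms, core subunits and the highest per complex; from the lists, up to 4 called genes or else the 2 smallest p-values. Not every gene this rule selects is reported here. Ndufa6, Ndufa10, Uqcrh, Sdhc, Ucp1 and Nrf1 were named after their values were seen. Sequences are from RefSeq (GRCm38.p6).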

Additional observations from a re-analysis of the deposited data

Results flagged for a closer look

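In the KO control group of 6 libraries, KO control female 1 lay apart from the rest, by Dixon's gap criterion, in the index over all subunits (−1.21, with the nearest other library at −0.30), in complex I (−1.47 against −0.24), in complex III (−1.03 against −0.21) and in complex V (−1.45 against −0.36). This library had 1523328 counts in all, 2709 of them on subunits, and 1992 CPM on olfactory and vomeronasal receptor genes. Tested subunits of complexes I, III and V, such as Ndufa2, Uqcr11 and Atp5f1, had 0 counts in it. In WT AngII, Ndufs3 was at 37.8 CPM in female 1, with the nearest other library at 13.2. These are 5 of 48 groups checked over 12 measures, and chance flags about 1 group in 20; the index values share their library and genes.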

How the results depend on the processing

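No value reversed a call. With no count filter, 1 subunit was called for KO against WT in controls (Atp5d, −1.09, adjusted p = 0.00715 by edgeR; 0.818% of all genes were called), and with brown adipocyte markers as a covariate the median there was 0.0567; the cause was not tested. Leaving out each library in turn, 0 to 1 subunits were called for AngII in KO (Atp5g3, without KO control female 2, where 0.629% of all genes were called) and 0 to 2 for KO against WT in controls (1 of 70 without KO control female 3, where 0.153% of all genes were called, and 2 of 70 without KO control female 2, where 2.22% were), with 0 to 0 in the other comparisons and between the sexes. Medians ran from −0.16 to 0.17 for AngII in WT, 0.06 to 0.25 for AngII in KO, −0.51 to −0.16 for KO against WT in controls, −0.22 to −0.02 under AngII and 0.04 to 0.32 for the difference of responses. The lowest and highest for KO against WT in controls came without WT control male 2 and male 1.

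Replicate numbers did not pair the libraries: deviations of same-numbered libraries had a mean correlation of 0.0041, and 10 of 24 correlated best with their own number. With the replicate block 0 subunits were called in each of the 5 comparisons, and the medians were −0.03, 0.12, −0.34, −0.12 and 0.20. Counting Sdhaf1 and Sdhaf2 as members, an alternative added after the data were seen, changed no call. A fit of only the groups compared was not run for the difference of responses or between the sexes, which use all 24 libraries. Depth limits these results: 10 tested subunits had a mean under 10 CPM.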
